A study of Mus musculus with 2 samples.

Results

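The genes described are the immediate early transcription factor genes of the Fos, Jun and Egr families: Fos, Fosb, Fosl1, Fosl2, Jun, Junb, Jund, Egr1, Egr2 and Egr3. They were chosen by name, as every array probe whose platform gene symbol is one of these 10. The 10 genes were found with 12 probes, among 16637 named genes and 29922 gene probes on the array. Between day 0 and day 3 of induced fat cell formation, after quantile normalization, Jun was 2.67-fold higher, Fosb at least 1.71-fold higher and Egr2 4.82-fold lower. Over 5 ways of scaling the arrays, the fold ranged from 1.72 to 3.67 for Jun and from 2.75 to 5.85 for Egr2. The Fosb bound ranged from 1.44-fold to 2.32-fold. Fosl1, Fosl2, Junb and Fos read nearly the same on both days after quantile normalization, and Jund, Egr1 and Egr3 lay between. As a group the 10 genes did not move one way: their median log2 difference, day 3 minus day 0, was 0.02, against 0.03 for all 10656 detected genes.

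Immediate early genes are transcribed within minutes of a growth factor, hormone or stress signal, without new protein synthesis, and their mRNAs are short-lived. FOS and JUN proteins are basic leucine zipper factors that pair to form AP-1, which binds the sequence TGANTCA. JUN proteins can pair with each other, whereas FOS proteins need a JUN partner. EGR proteins are zinc finger factors that bind GC-rich sites and are held in check by the NAB corepressors. In cultured preadipocytes the standard hormone mixture switches several of these genes on soon after it is added, and EGR2, also called KROX20, is known as an early promoter of adipogenesis upstream of C/EBPβ.

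Both samples were embryonic fibroblasts of the mouse whose label gives an Xbp1 knockout, with 1 array for day 0 and 1 for day 3. Xbp1 encodes a factor that switches on genes when unfolded protein accumulates in the endoplasmic reticulum. No cells with intact Xbp1 are part of the comparison, and the labels say neither how many embryos the cells came from nor whether the line is 1 clone. Day 0 was the day of confluence. For the next 72 h the medium held IBMX at 0.25 mM, which inhibits the breakdown of cAMP, insulin at 10 µg/ml, DXM at 5 µM, and the PPARγ agonist troglitazone, also at 5 µM, so that the day 3 cells had been exposed to all 4 agents. Day 3 therefore shows the genes long after the first minutes of induction, and no earlier time was analysed here. With 1 sample per day no difference has a replicate behind it and none carries a p-value: each is a difference between 2 arrays.

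Facts of the whole series bear on the readings as follows. Gene probes had a median raw intensity of 78 on the first array and 166 on the second, and quantile normalization put both arrays on 1 distribution. A normalized signal over the median of all gene probes, 122, was called detected. Before normalization, which is a different scale, 95% of empty spots read no more than 7 on day 0 and 9 on day 3. The knocked-out gene's own probe read 20936 on day 0 and 13561 on day 3, and as its position relative to the deleted part is unknown here it does not check the label. Of 11 fibroblast markers, 11 were above the threshold on day 0 and 10 on day 3. Of 7 fat cell markers, including Adipoq, Fabp4 and Plin1, 0 were above it on either day, and the sum of their signals was 88 on day 0 and 310.5 on day 3. Adipoq, at 12 and 120.5, was close to the threshold on day 3, and 1 marker passed it under median scaling over probes above the threshold on both days and with no normalization. Macrophage markers summed to 17211.5 on day 0 and 43586 on day 3, with 4 of 6 above the threshold on at least 1 day. Most of that sum was Cd14, at 16036 and 39698.5. Itgam read 703.5 and 3556, Csf1r 269.5 and 51.5, and Cd68 198.5 and 268, while the pan-leukocyte gene Ptprc read -0.5 and 1.5 and the macrophage gene Adgre1 4.5 and 10.5. Of 4 endothelial, 6 epithelial and 4 neural markers, 2 each were above the threshold on at least 1 day, and of 4 skeletal muscle markers 0 were. The part of other cell types in the results below was not tested.

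The stretches of DNA just upstream of these genes carry sites through which signals reach them, and 4 are printed because Jun, Fosb and Egr2 had the largest differences and Fos is the model gene of the class. The sequences are from RefSeq on GRCm38.p6, where promoter windows of 300 bases were found for 7 of the 10 genes. Each shows the 150 bases before the start of transcription, 5′ to 3′ on the gene's strand. Capitals mark TGACG, the core of the site bound by the cAMP-responsive factor CREB, on either strand (CGTCA on the other), the 10-base CArG box bound by serum response factor, and TGACATCA, an AP-1-like site known from the Jun promoter.
Fos, chr12:85473740-85473889, plus strand: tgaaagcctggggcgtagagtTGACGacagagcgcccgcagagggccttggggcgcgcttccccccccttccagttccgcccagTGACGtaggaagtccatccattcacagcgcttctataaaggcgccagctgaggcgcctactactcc
Fosb, chr7:19310046-19310195, minus strand: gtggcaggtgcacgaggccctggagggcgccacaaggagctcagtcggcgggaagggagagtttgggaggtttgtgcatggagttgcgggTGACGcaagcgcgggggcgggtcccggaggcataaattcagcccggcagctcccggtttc
Jun, chr4:95052223-95052372, minus strand: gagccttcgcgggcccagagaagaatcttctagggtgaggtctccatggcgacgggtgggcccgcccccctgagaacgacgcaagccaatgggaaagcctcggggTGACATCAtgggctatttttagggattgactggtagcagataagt
Egr2, chr10:67537719-67537868, plus strand: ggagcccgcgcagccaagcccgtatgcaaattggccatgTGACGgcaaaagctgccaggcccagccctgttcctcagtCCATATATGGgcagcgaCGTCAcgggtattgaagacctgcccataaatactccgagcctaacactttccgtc

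The core TGACG stood in 4 of the 7 genes with a window: Fos held 2 copies, at -129 and -66 from the start, Fosb 1 at -60, Junb 1 at -106 and Egr2 2 at -111 and -55 of the start printed, which is 1 of 5 listed. Searched on both strands, it occurs in 20.8% of all 32851 windows of the same length. The 4 genes that hold it include 1 that was higher on day 3 (Fosb) and 1 that was lower (Egr2). The other 2, Fos and Junb, read nearly the same after quantile normalization. Any link between the core and the differences was not tested. The Egr2 stretch also holds a CArG box at -72, a motif found in 1.63% of windows and in no window of the other 6 genes. The windows reach only 250 bases before the start, so a site farther upstream of any of these genes would not be seen. Egr2 also had 5 of the 11 windows searched. Jun held TGACATCA at -45, which 3.62% of windows contain, and no TGACG. The EGR site GCGNGGGCG was found upstream of Fosb, at -50, and of Fosl2, at -79, against 5.55% of windows, and TGANTCA in none of the 7 genes against 7.81%. A match is a description of letters, not of a bound site.

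Of the 10 genes, all of which were detected on at least 1 day, 2 were 2-fold higher on day 3 as read (Jun and Fosb, the latter from a day 0 signal below the threshold) and 1 was 2-fold lower (Egr2). Of all detected genes 12.8% were 2-fold higher and 10.3% 2-fold lower, so these shares are near the background. When signals below the threshold were raised to it, 1 member was 2-fold higher, Jun, against 10.2% of genes, and 1 was 2-fold lower, Egr2, against 8.51%. In these bulk samples fewer cells that express a gene and less of its mRNA per cell cannot be told apart. Less than 1.5-fold separated the days for 5 members, as for 54.9% of all detected genes.

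**Figure D1:**
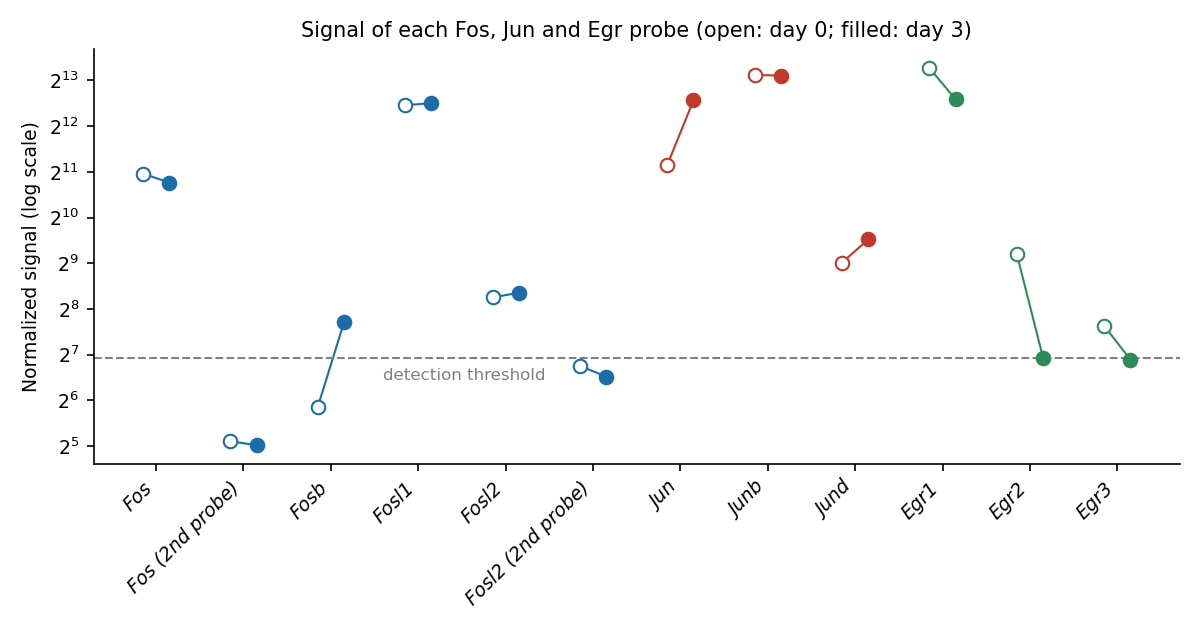
Normalized signal (log scale) of each of the 12 probes on day 0 (open circles) and day 3 (filled circles), with Fos family probes in blue, Jun family in red and Egr family in green, and the detection threshold of 122 as a dashed line. Jun climbs from 2270.5 to 6055.5, Egr2 drops from 590 to 122.5, just above the threshold, and the additional probes of Fos and Fosl2 lie below the threshold on both days.

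The JUN proteins supply the obligatory partner in AP-1, and only 1 of the 3 genes passed 2-fold. Jun, which encodes the strongest activator of the family, read 2270.5 on day 0 and 6055.5 on day 3, which differ by 1.42 on the log2 scale. Control features printed as several spots on each array gave a technical error for such differences, and at the brightness of Jun the SD was 0.42 from the median feature and 0.58 pooled over features. The difference of Jun was larger than both, but such an error holds only the scatter among spots and nothing of the spread among cultures. Among 3088 detected genes of like brightness, with a mean log2 signal of 10 to 12, 4.15% had a higher difference. Its place among all gene probes, which no constant scaling of an array can alter, moved from percentile 85.1 on day 0 to percentile 93.0 on day 3.

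Junb, whose protein often acts as a weaker partner that tempers JUN, read 8885.5 on day 0 and 8805.75 on day 3. Its difference of -0.01 lay inside the repeat-spot SD of 0.36, and it stood at percentile 95.2 of gene probes on day 0 and 95.1 on day 3. Jund, the member that resting cells typically express, read 517.5 and 734.5. That difference of 0.51, 1.42-fold, exceeded the repeat-spot SD of 0.34 from the median feature and lay within the pooled SD of 0.74. The difference of Jun exceeded that of Junb by 1.43 on the log2 scale, by 1.48 under any constant scaling of the arrays and by 1.42 under both cyclic loess and the authors' own values. It exceeded that of Jund by 0.91, and by 0.72 under constant scaling. The 3 Jun genes thus read unequal differences between the same pair of arrays.

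The 4 FOS family genes, whose products need a JUN partner, ranged from -0.20 to 1.85 in log2 difference, and 1 of the 4 was 2-fold higher. Fosb, which gives rise to the full-length protein and the shorter ΔFOSB, read 58 on day 0, below the threshold, and 209 on day 3. As read, that is a log2 difference of 1.85, and against the threshold it is at least 1.71-fold. This bound of 0.78 exceeds the repeat-spot SDs of 0.43 and 0.69 at this brightness. Under cyclic loess the bound of Fosb was 0.53, between those SDs, and with no normalization it was 1.22. Before normalization its intensities were 28 and 274, both over the level of empty spots. Its place among gene probes moved from percentile 38.8 to 57.8.

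Fos itself, the founding member, read 1994.5 on day 0 and 1739 on day 3 by its brighter probe, which differ by -0.20, less than the repeat-spot SD of 0.42. Its additional probe read 34.5 and 32.5, below the threshold on both days, so no fold is given for it. Fosl1, which encodes FRA-1, a FOS relative without a strong activation domain, read 5613.25 and 5800.5, a difference of 0.05 against an SD of 0.36. Fosl2, which encodes FRA-2, read 305.5 and 327, a difference of 0.10 against an SD of 0.34. The additional Fosl2 probe read 108 and 92, below the threshold on both days. For Fos, Fosl1 and Fosl2 the days therefore differed by less than the scatter of repeated spots.

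The 3 EGR genes all read lower on day 3 after normalization, with differences of -2.27 for Egr2, -0.74 for Egr3 and -0.68 for Egr1, although Egr3 was 0.25 higher with no normalization. Egr2, the KROX20 gene, read 590 on day 0 and 122.5 on day 3, a 4.82-fold difference larger than its repeat-spot SDs of 0.34 and 0.74. Its day 3 signal lies 0.5 above the threshold of 122, so the fold is close to the largest that could be given for this probe. Of 3021 detected genes with a mean log2 signal of 8 to 10, 0.993% had a lower difference. Its place among gene probes moved from percentile 70.4 to 50.1. In the authors' deposited table Egr2 went from 552.7 to 163.6, which gives a smaller difference of -1.76.

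Egr1, the EGR gene most broadly induced by serum and growth factors, read 9859.5 on day 0 and 6150 on day 3, 1.60-fold lower. This difference exceeded the repeat-spot SD of 0.36 from the median feature and lay within the pooled SD of 0.90. Egr3 read 198.5 and 119, the second value below the threshold, so that it was at least 1.63-fold lower, and this bound of -0.70 was about the size of the pooled SD of 0.69. The difference of Egr1 exceeded that of Egr2 by 1.59, by 1.20 under constant scaling and by 1.08 in the authors' values. Egr2 and Jun had the most distant differences of the members above the threshold on both days, 3.68 apart on the log2 scale and 3.33 apart under constant scaling.

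**Figure D2:**
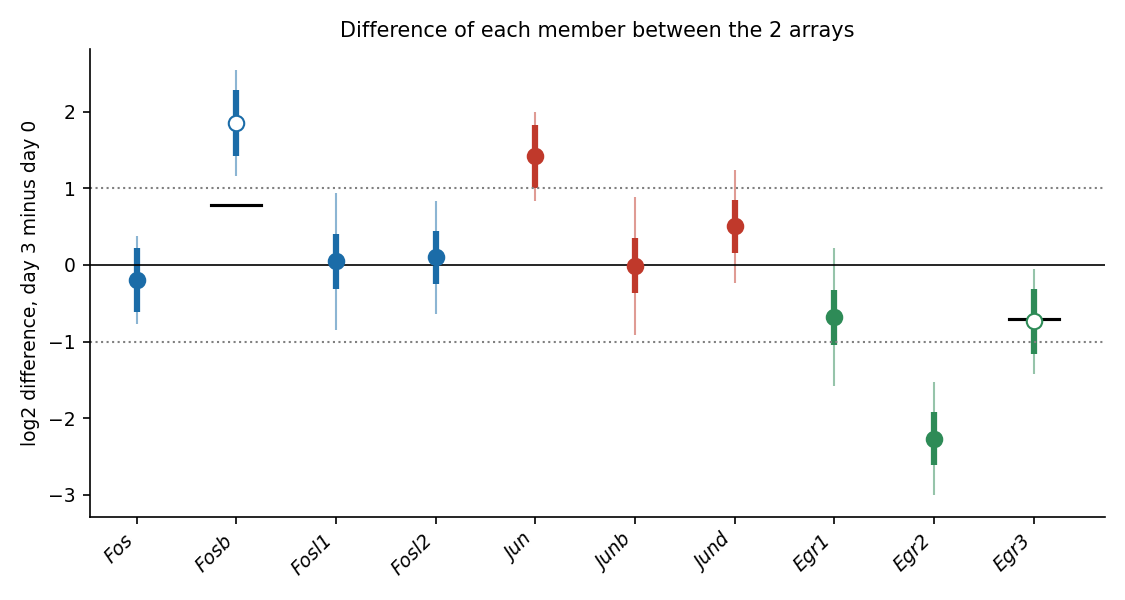
log2 difference, day 3 minus day 0, of each member by the probe that stands for it. Thick bars are the repeat-spot SD from the median control feature and thin bars the pooled SD, both between spots and not between cultures, and dotted lines mark 2-fold. Open circles are genes below the threshold on 1 day, with the bound as a black line (0.78 for Fosb and -0.70 for Egr3). The thin bars of Jun, Fosb and Egr2 stay clear of 0. That of Egr3 only just does, with a difference of -0.74 against a pooled SD of 0.69.

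**Figure D3:**
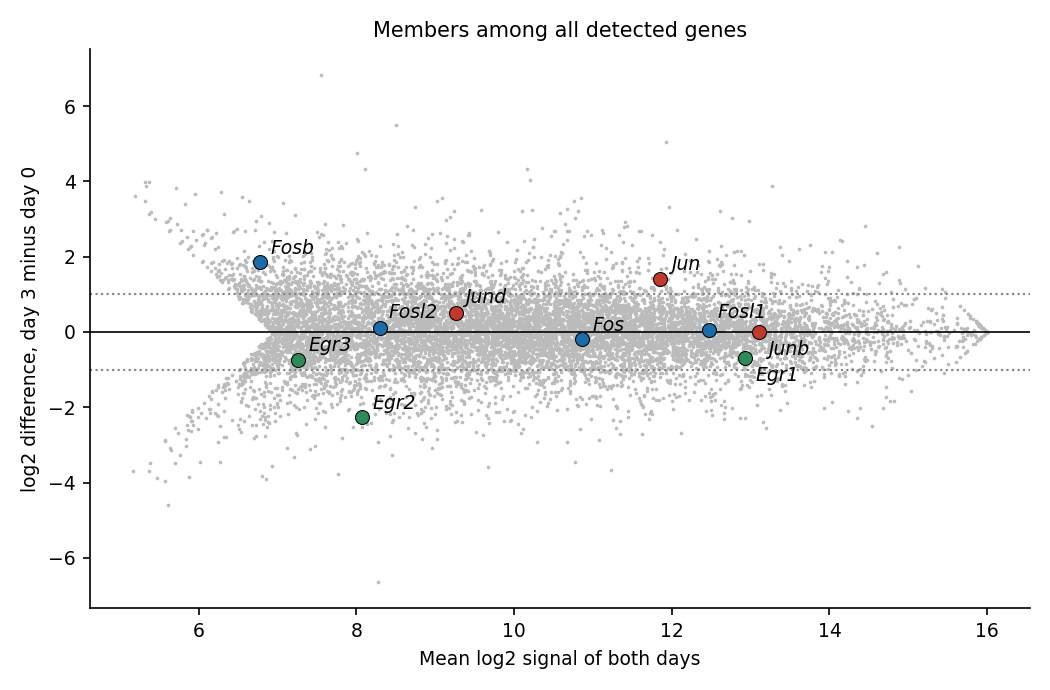
log2 difference against mean log2 signal for the 10656 detected genes (grey) and the 10 members (blue Fos, red Jun, green Egr), with dotted lines at 2-fold. Jun, Fosb and Egr2 lie towards the edges of the cloud at their brightness, and the other 7 lie within 2-fold.

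The arrays differ in overall brightness, so the differences near 0 took their sign from the scaling. Jun, Jund and Fosb were higher and Egr1 and Egr2 lower under each of 5 ways of scaling the arrays, as read. Fos, Fosl1, Fosl2, Junb and Egr3 changed sign among them, for example Fos at -0.79 under median scaling over all gene probes and 0.30 with no normalization. Jun ranged from 0.78, which is less than 2-fold, under median scaling over all gene probes to 1.87 with no normalization. Egr2 ranged from -2.55 to -1.46 in those same 2 settings. Median scaling over all gene probes made Egr1 2.55-fold lower, but with no normalization Egr1 was only 1.20-fold lower (-0.26). Jund was 2.23-fold higher with no normalization, but only 1.05-fold higher (0.07) with that median scaling. These smaller values of Egr1 and Jund lay inside the repeat-spot SDs from the median feature, 0.36 and 0.34. Fosb ranged from 1.84 with cyclic loess to 3.29 with no normalization as read, and its bound from 1.44-fold to 2.32-fold in the same settings. As read, median scaling over all gene probes made 829 of all 10655 detected genes 2-fold higher and 2586 lower. With no normalization these counts were 3940 and 315 of 11043. The as-read counts of each gene list below are to be set beside these.

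**Figure D4:**
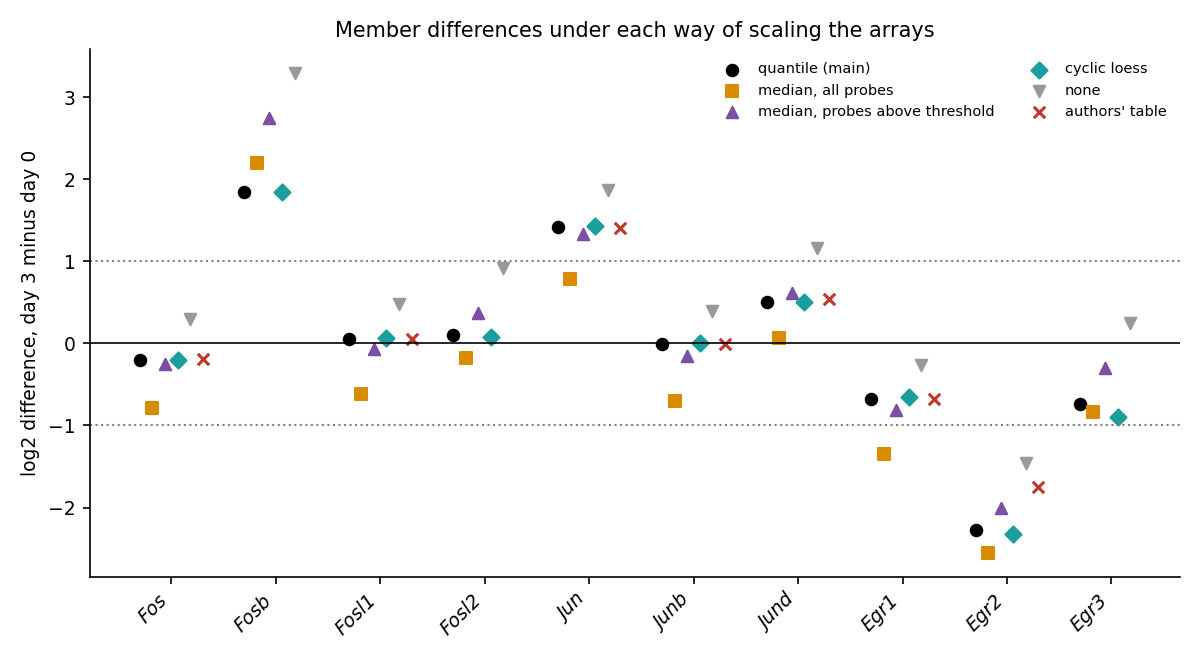
log2 difference, day 3 minus day 0, of each member under 5 ways of scaling the per-sample intensities and in the authors' table, which holds 7 of the members; dotted lines mark 2-fold. Jun, Jund and Fosb stay above 0 and Egr1 and Egr2 below it in every setting drawn, and the symbols of Fos, Fosl1, Fosl2, Junb and Egr3 fall on both sides.

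Other leucine zipper proteins share dimer partners and sites with AP-1. Of 11 such genes on the array, 9 were detected, with a median of -0.01. Of these, 2 were 2-fold higher and 0 lower, against 12.8% and 10.3% of all detected genes. If signals below the threshold are set to it, 1 was higher, against 10.2%. As read, median scaling over all gene probes gave 1 higher and 2 lower. Batf3, an AP-1 member best known from immune cells, read 295 and 632.5, 2.14-fold higher, with a log2 difference of 0.77 in that same setting. Its relative Batf read 27 and 160.5, at least 1.32-fold higher. Jdp2, a repressor that pairs with JUN, read 11246 on day 0 and 6279 on day 3, a difference of -0.84. The stress-induced Atf3 was below the threshold on both days at 61.5 and 20.

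Around the EGR genes, the corepressor gene Nab2 read 3702.25 and 3750.5, a difference of 0.02 whose sign changed with the scaling. Nab1 read 15595 and 10002 by its brightest probe, 1.56-fold lower, and its other detected probes gave -2.48 and -1.63. Wt1, a zinc finger gene that binds similar sites, read 289 and 111, at least 2.37-fold lower, and was the 1 gene of 3 detected in this list past 2-fold. Of all detected genes 10.3% were 2-fold lower. As read, 0 genes of the list were 2-fold lower with no normalization, where Wt1 gave -0.46, and 2 were under median scaling over all gene probes. The remaining family gene Egr4 was below the threshold on both days at 115.5 and 49.

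Upstream, serum response factor and its partners receive signals from MAP kinases and from actin. Srf itself was not analysed here. Its ternary complex partners Elk1, with signals of 547 and 360.5, and Elk3, with 536.5 and 590.5, and the actin-sensing coactivator Mrtfa, with 244.5 and 181.5, all stayed within 2-fold, and the sign of each changed with the scaling. Elk4, at 92 and 45.5, and Mrtfb, at 90.5 and 101.5, were below the threshold on both days. Of 19 detected genes of the MAP kinase cascade, 0 were 2-fold higher and 0 were 2-fold lower, and the median was -0.09, by the brightest probe of each gene. Of all detected genes 12.8% were higher and 10.3% lower. Dimmer detected probes were more than 2-fold lower for the JUN kinase gene Mapk8 (-1.50), the ERK gene Mapk3 (-1.14) and the p38 gene Mapk11 (-1.11), whose brightest probes gave -0.21, -0.26 and -0.09. Among the brightest probes the largest difference was that of Mapk9, a second JUN kinase gene, at 5394 and 10410.5 (0.95). These 4 genes are named outside the rule, after their values were seen. With no normalization 7 of 20 in this list were 2-fold higher, against 3940 of all 11043 detected genes. When the medians of all gene probes were equalized 6 of 19 were 2-fold lower, against 2586 of 10655. Both are as read.

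Other immediate early genes also went both ways. Of 35 detected, 9 were 2-fold higher (8 if signals below the threshold are set to it) and 5 were 2-fold lower, with a median of 0.15, against 12.8% higher and 10.3% lower of all detected genes. As read, median scaling over all gene probes gave 6 higher and 9 lower, and no normalization gave 13 and 4. Nr4a1, an orphan nuclear receptor gene, read 389 and 3676.5, 9.45-fold higher, and its relative Nr4a3 read 34.5 and 165.5, at least 1.36-fold higher. The chemokine gene Cxcl2 was 7.08-fold higher and Dusp2, which encodes a MAP kinase phosphatase, 4.52-fold higher. Lower were the growth regulator Myc at 5109.5 and 1264.5, 4.04-fold, the kinase gene Plk2, 3.82-fold, Klf4, 3.20-fold, and Ccn1, a matricellular protein gene, 3.14-fold. The other detected probe of Myc gave -0.63, that of Ccn1 -0.25, and those of Klf4 -0.64 and -0.09. Jun and Egr2 lay on opposite sides, and this list held genes on both sides, as did all detected genes.

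Of 18 detected genes known as AP-1 targets, 6 were 2-fold lower and 1 was 2-fold higher, with a median of -0.44, against 10.3% lower and 12.8% higher of all detected genes, and 6 of the 18 were saturated on at least 1 day. Plau, the urokinase gene, read 6072 and 1035, 5.87-fold lower, and its receptor gene Plaur was 4.57-fold lower. Ccnd1, which encodes cyclin D1, was 4.28-fold lower, with -3.86 to -2.34 by its other probes, and Hmox1, which encodes haem oxygenase, 4.07-fold lower. The higher member was Il6, at 500 and 3419.75, 6.84-fold. As read, median scaling over all gene probes gave 1 higher and 12 lower, and no normalization gave 1 and 5. Genes known as EGR targets had a median of -0.03, with 2 of 12 detected 2-fold lower and 0 higher. For these, median scaling over all gene probes gave 0 higher and 4 lower as read, with a median of -0.69. No normalization gave 1 higher and 2 lower, with a median of 0.40. Thbs1, a matrix glycoprotein gene, read 8550.5 and 674, 12.7-fold lower, with -3.13 by its other probe, and Fgf2 read 256 and 23.5, at least 2.10-fold lower. No test of these lists against other genes was made.

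Immediate early mRNAs are cleared through AU-rich elements, and JUN proteins through ubiquitin ligases. Of 11 genes of these systems, all detected, 2 were 2-fold higher and 1 was 2-fold lower. Of all detected genes 12.8% were higher and 10.3% lower, so these counts are near the background. The higher pair were the mRNA-decay genes Zfp36, at 945.5 and 2081, 2.20-fold, and Zfp36l1, at 9619 and 22834, 2.37-fold, both less than 2-fold higher under median scaling over all gene probes (0.59 and 0.56). Det1, a part of a ligase complex that acts on JUN, read 292.5 and 132.5, 2.21-fold lower, and -0.22 with no normalization. As read, median scaling over all gene probes gave 0 higher and 4 lower in this list, and no normalization 3 and 0.

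**Figure D5:**
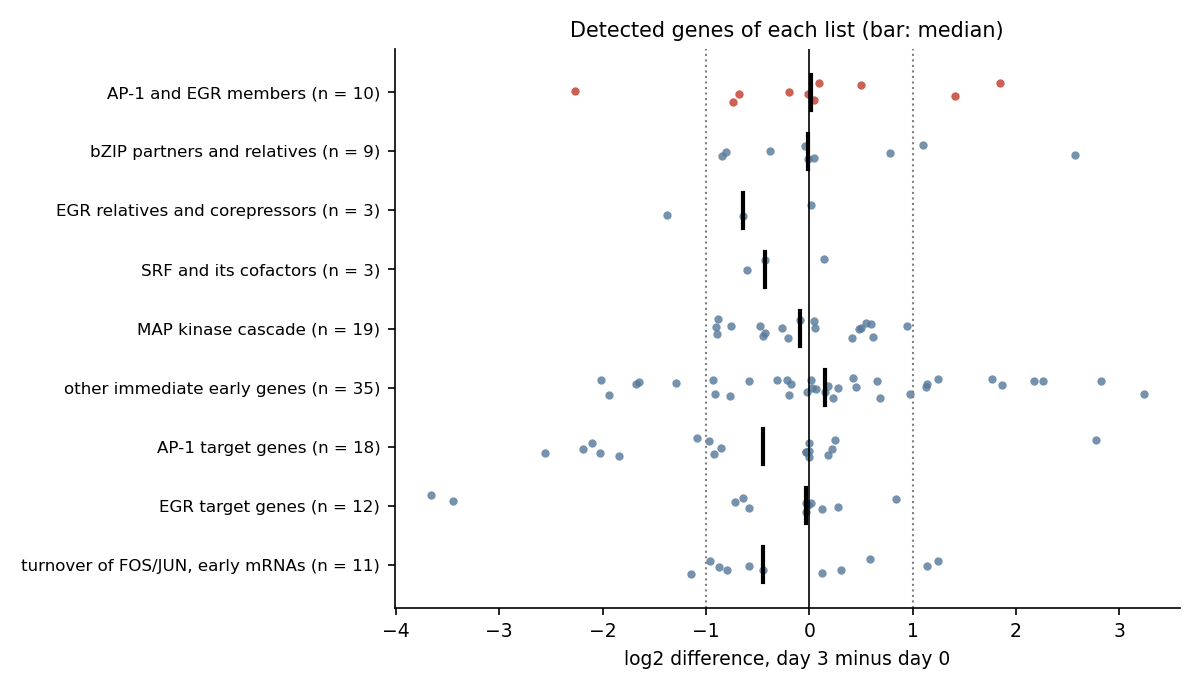
log2 difference, day 3 minus day 0, of every detected gene of each list, spread vertically only for legibility, with the 10 members in red and the other lists in blue-grey; black bars are medians and dotted lines mark 2-fold. The members range from -2.27 to 1.85 around a median of 0.02, and the MAP kinase genes all lie within 2-fold.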

How the data were processed

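The stage in the labels set the day of each of the 2 samples. As deposited, each sample's table gives a linear fluorescence intensity per spot, which appears background-subtracted. Per the labels' protocols, 1 µg of RNA was amplified and labelled with Cy5 by Phalanx, with scanner and image software not stated. The authors also deposited normalized intensities of 11482 gene probes, used here as an alternative. Quantile normalization of the 29922 gene probes was done in limma 3.58.1 (R 4.3.3), with a floor of 10 before log2. Each gene was read from its brightest probe by mean log2 signal. Names came from the platform annotation, updated through a GRCm38.p6 gene table. Folds with 1 day below the threshold of 122, or saturated (65000 or more), are lower bounds. The technical error came from control features with 4 to 6 spots per array, times the square root of 2. With 1 sample per day no test was possible. The call was tested on simulated data with a constant shift between the arrays and changes only in probes well above the threshold. That simulation does not cover genes near the threshold or a shift that varies with brightness. The members and gene lists were chosen with earlier results of these data known. All 10 members were named whatever their values, with 12 regulators and relatives, and up to 4 genes of each list at least 2-fold higher and 4 lower. The alternatives were 4 other scalings, an offset of 50, a floor of 1, 3 other detection rules, signals at the threshold, the mean of all probes and the authors' table. Array number limits the precision.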

Additional observations from a re-analysis of the deposited data

How the results depend on the processing

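The count of members 2-fold lower was 1 under all 12 alternatives once the shift of all genes was removed. The count 2-fold higher was 1 in place of 2 when both days had to exceed the threshold, when signals below it were set to it, and in the authors' table. The median of all detected genes was -0.49 under median scaling over all gene probes and 0.67 with no normalization, and these shifts were removed from the values. As read, 1 member was higher and 2 were lower under the former, and 3 and 1 under the latter, and higher genes made up 24.3% and 92.6% of all 2-fold genes, against 55.4% after quantile normalization. That share was 66.4% under median scaling over probes above the threshold on both days. The median of the members ranged from -0.21 to 0.04 over the settings with the shift removed, and from -0.66 to 0.43 as read. With the shift removed, of 115 values of single members under alternatives, 107 moved by less than the repeat-spot SD, 8 moved by more (those of Fosb, Egr2 and Egr3), and 0 members past 2-fold changed sign. A floor of 1 and the 3 other detection rules leave the value of a detected member unchanged by construction. The count of 107 therefore includes values that could not move and does not measure stability. No paired analysis was possible because each day has 1 sample, and no sample could be left out.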
